A study of Mus musculus with 378 samples.

Results

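Foxp3-positive cells among the CD4 T cells of B16F10 tumours were compared with the Foxp3-negative CD4 cells of the same tumours. B16F10 is a mouse melanoma line, here grown in C57BL/6 mice, either wild type (WT) or labelled IL27raKO (KO below), lacking the IL-27 receptor alpha chain by label. Each library used here was made from a single cell with Smart-seq2, a full-length cDNA method. A CD4 cell was kept where at least 1000 genes were above 0 FPKM, a count of fragments scaled to transcript length and library size. This left 79 of 94 WT and 78 of 94 KO libraries of single CD4 cells, in a series with 374 libraries of single cells. Members were chosen by their measured Foxp3 FPKM. A kept cell was called Foxp3-positive where Foxp3 was above 0 FPKM and Foxp3-negative where it was listed at 0. This gave 69 positive and 88 negative cells. In WT mice they numbered 30 and 49, and in KO mice they numbered 39 and 39. The labels name no age, no transgene and no drug, and no animal, so each genotype is 1 sample whose cells are not replicates. The WT CD4 titles also hold the marks dog and p3 and the KO CD4 titles bird and p2. These were not interpreted, so genotype and whatever these marks stand for cannot be told apart. The CD4 identity rests on the titles, since the isolation text speaks of CD8 cells. Because the measured Foxp3 value chose the cells, every difference below is a description with no test, and Foxp3 itself is left out of the results.

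Foxp3 is the lineage-defining transcription factor of regulatory T cells, a CD4 subset that restrains other immune cells. These cells carry much of the high-affinity IL-2 receptor chain CD25 (Il2ra), consume IL-2, display the inhibitory receptor CTLA-4 and the costimulatory TNF receptors OX40 and GITR, and often hold the Ikaros family factor Helios (Ikzf2). In tumours they are known for an activated state with effector molecules and receptors for inflamed tissue. Conventional helper CD4 cells, which mostly lack Foxp3, supply CD40 ligand and cytokines.

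The targeted gene did not follow its label. Il27ra was above 0 in 12 of 30 Foxp3-positive WT cells and in 24 of 39 Foxp3-positive cells labelled KO, with mean log2(FPKM + 1) of 2.39 ± 3.11 (SD over cells) and 3.73 ± 3.30. Among Foxp3-negative cells it was above 0 in 26 of 49 WT and 17 of 39 KO cells, at 3.41 ± 3.56 and 2.75 ± 3.34. The Foxp3-positive minus Foxp3-negative difference of Il27ra was -1.02 in WT and 0.98 in KO. The sources used here do not say which part of the gene was deleted, so a value summed over the gene checks the label only in part, and KO is used below as the label.

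Foxp3 above 0 marked 38% of the kept WT CD4 cells (exact Clopper-Pearson 95% interval 27.3% to 49.6%, counting error only) and 50% of those labelled KO (38.5% to 61.5%). In CD8 cells, which should lack it, Foxp3 was above 0 in 0 of 67 WT cells, which allows a share of up to 4.48% (3 counts of the total, the limit used for each count of 0 below), and in 3 of 74 KO cells (4.05%, 0.844% to 11.4%). The lowest positive WT cells stood at 8.26, 10.96 and 69.42 FPKM and the median at 1213.11. The lowest positive KO cells stood at 0.8, 1.04 and 45.02 FPKM and the median at 916.22. Outside the threshold every cell was listed at 0, and 1 WT and 2 KO cells lay at or below 10 FPKM.

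The other markers of the lineage went with the split. Il2ra, Ikzf2 and Tnfrsf4 were all above 0 in 21 of 30 Foxp3-positive WT cells and 26 of 39 Foxp3-positive KO cells, against 2 of 49 and 1 of 39 Foxp3-negative cells. None of these markers was above 0 in 0 of 30 WT and 1 of 39 KO positive cells, against 29 of 49 and 22 of 39 negative cells. The negative class was therefore not free of the markers: 8 of 49 WT and 12 of 39 KO negative cells had Il2ra. Cd4 itself was above 0 in 96.7% of positive and 69.4% of negative WT cells, and in 82.1% and 97.4% of KO cells, against 6 of 67 WT and 2 of 74 KO CD8 cells. Cd8b1, a CD8 chain, was above 0 in 46.7% of positive and 10.2% of negative WT cells and in 35.9% and 30.8% of KO cells. Cd8a stood between 5.13% and 10.3% in all CD4 classes. In CD8 cells Cd8b1 was above 0 in 82.1% (WT) and 81.1% (KO). The summed level of Cd8a, Cd8b1 and Runx3 was low in CD4 cells. Its median was 4.145 FPKM in positive, 2.05 in negative and 1806.8 in CD8 cells of WT. In KO these medians were 2.55, 1.63 and 1905.67 FPKM. A Cd3 chain and B2m were both present in all but 1 of 30 and 6 of 49 WT cells and 0 of 39 and 1 of 39 KO cells.

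Most markers of other cell types were sparse, and 7 were not. Tyr, a melanocyte pigment gene, was above 0 in 92.3% to 100% of the cells of each CD4 class, and the neutrophil genes Cxcr2 and Csf3r in 84.6% to 94.9% and 46.2% to 66.7%. These 3 had low levels, with class means of log2(FPKM + 1) of at most 3.28 for Tyr, 2.93 for Cxcr2 and 1.31 for Csf3r. Pecam1, an endothelial gene, was above 0 in 15.4% to 38.5%, and Ccr2, Cd74 and Xcr1 are the others. Each of the remaining markers was above 0 in at most 13.3% of any CD4 class. At least 3 markers of macrophages and monocytes, class II antigen presentation or dendritic cells were above 0 in 17 of 30 positive and 7 of 49 negative WT cells, and in 15 of 39 and 4 of 39 KO cells. Without Ccr2, Cd74 and Xcr1 these counts were 2, 0, 4 and 3 cells. Cd74, the invariant chain of class II molecules, was above 0 in 60% of positive and 4.08% of negative WT cells and in 41% and 7.69% of KO cells. Defining macrophage genes were in few cells, and some of them leaned to the positive class. Csf1r was listed at 0 in all Foxp3-positive cells and was above 0 in 1 of 39 negative KO cells. Lyz2 was above 0 in 10% of positive and 0% of negative WT cells and in 10.3% and 2.56% of KO cells. C1qa and C1qb were each above 0 in 6.67% and 0% of WT cells. Apoe, at 10% and 12.2% in WT, and Fcgr3, at 2.56% and 5.13% in KO, went the other way. The summed level of the 12 macrophage and monocyte markers, Ccr2 among them, had a median of 588.9 FPKM in positive and 1.83 FPKM in negative WT cells and of 489.3 and 0.8 FPKM in KO cells. The part of other cells in the differences below was not tested beyond the values given with such cells left out.

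The Foxp3-positive libraries held more genes. The median number of genes above 0 was 2822 in positive and 2119 in negative WT cells and 2809 and 2500 in KO cells. Reads per cell, estimated from the steps between low FPKM values, had medians of 536427 and 257989 in WT and 572190 and 474740 in KO. The depth gap runs the same way as the split and was wider in WT, so the differences were also computed in cells matched on genes or reads and in cells thinned to 100000 estimated reads. Thinning left the genes above 0 apart, at medians of 2218.5 and 1817 in WT and 2186 and 1903.5 in KO. Matching did not close every gap in estimated reads. Matching on genes kept 24 WT and 34 KO cells of each class. Their median reads were 446607 and 294942 in WT and 545953 and 483284 in KO. Matching on reads kept 19 WT and 30 KO cells of each class, at medians of 340006 and 349912 in WT. In KO these were 589230 and 495153, still apart.

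**Figure D1:**
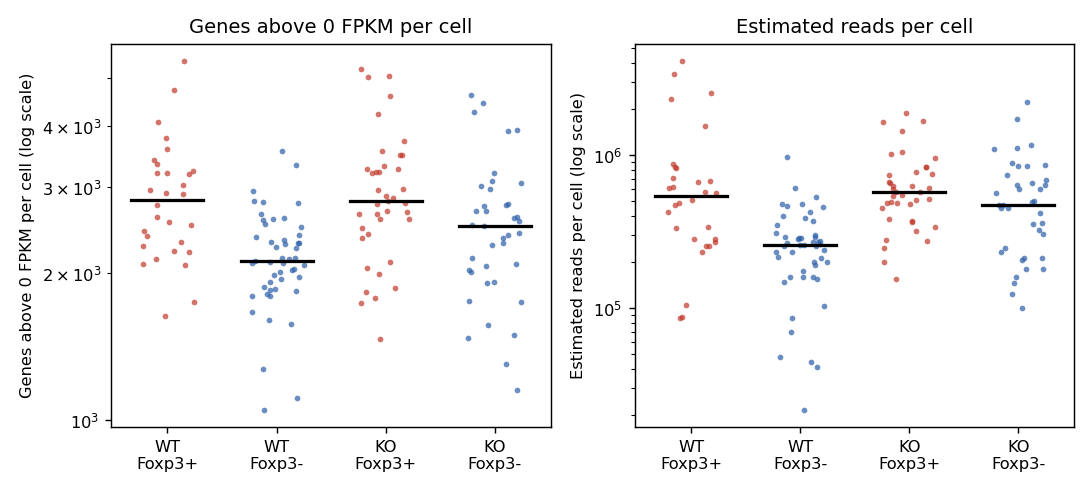
Genes above 0 FPKM per cell (left) and estimated reads per cell (right), both on log axes, for each Foxp3 class and genotype. Points are cells and bars are medians. The positive classes have the higher medians, 2822 against 2119 genes in WT and 2809 against 2500 in KO.

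Differences were taken as the mean log2(FPKM + 1) of Foxp3-positive cells minus that of Foxp3-negative cells, once in WT and once in KO. Means, SDs and medians are over all cells of a class, those at 0 included, unless said otherwise. The differences are given for the 6706 genes above 0 in at least 10% of the kept cells of each genotype, and a gene was called alike where both differences had 1 sign and a size of at least 1. Of these genes 1836 (27.4%) were higher by at least 1 in WT and 2.12% lower by as much, while in KO 1227 (18.3%) were higher and 3.41% lower. A difference above 0, of any size, was found for 72.8% of genes in WT, for 64.6% in KO and for 51.3% in both. Alike in both were 717 genes that were higher in Foxp3-positive cells (10.7%) and 51 that were lower (0.761%). Each member list below is to be read against these shares, because the median over all genes was itself above 0, at 0.43 in WT and 0.22 in KO. Of the alike genes 93.4% were higher, a split that was 82.2% after each genotype was centred on its median, 70.8% in cells matched on genes, 72.8% in cells matched on estimated reads, 70.9% with log2 of the mean FPKM and 82.3% without cells that carry several cell division genes. The shares of genes called moved likewise, to 5.07% higher and 2.09% lower in cells matched on genes.

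**Figure D2:**
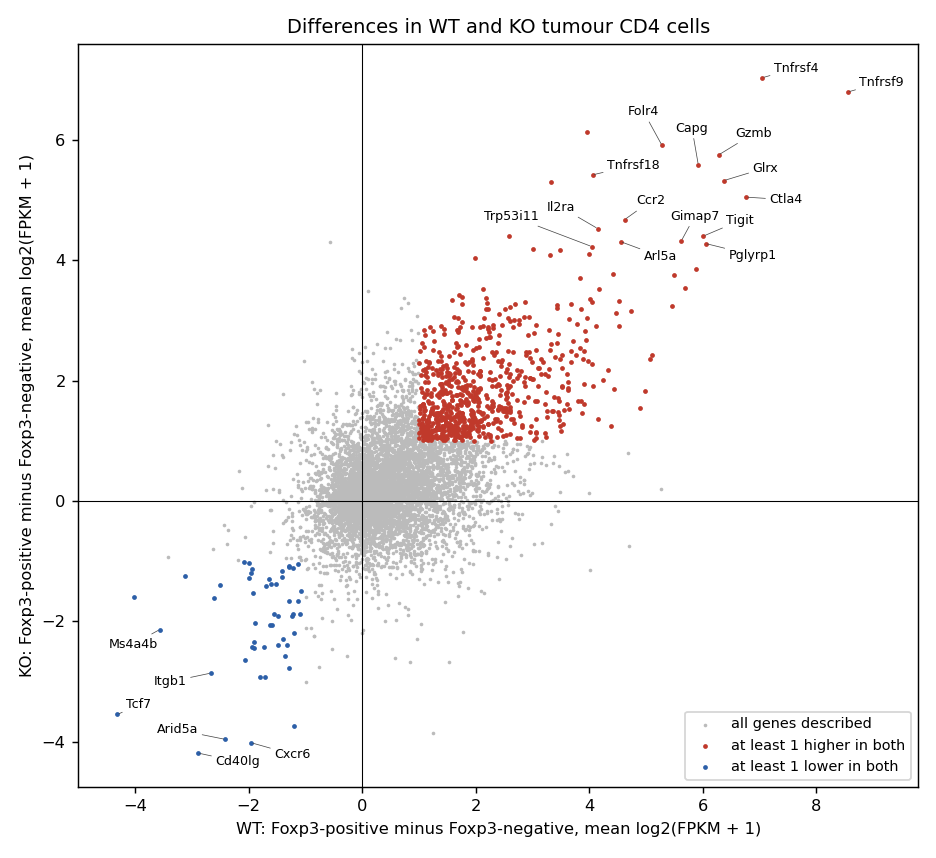
Difference of mean log2(FPKM + 1), Foxp3-positive minus Foxp3-negative, in WT (x axis) and KO (y axis) cells for each of 6706 genes. Red and blue points are the 717 higher and 51 lower alike genes. Tnfrsf4 and Tnfrsf9 lie farthest to the upper right, Tcf7 and Cd40lg farthest to the lower left.

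The largest alike differences were those of costimulatory TNF receptors, which bind ligands on antigen-presenting cells and feed signals to NF-kB through TRAF adaptors. Tnfrsf4 (OX40; chr4:156013843-156016612, GRCm38) was above 0 in 25 of 30 Foxp3-positive and 10 of 49 Foxp3-negative WT cells, at 9.01 ± 4.40 (SD over cells; lowest 0, median 11.09, highest 12.70) against 1.96 ± 4.03 (median 0, highest 13.40). In KO cells it was above 0 in 34 of 39 positive cells at 9.66 ± 4.30 (median 11.65, highest 13.96) and in 12 of 39 negative cells at 2.62 ± 4.50 (median 0, highest 13.15). The differences were 7.05 and 7.04, and the cells above 0 of both classes overlapped, with means among those cells of 10.81 against 9.59 in WT and 11.08 against 8.51 in KO. In CD8 cells Tnfrsf4 was above 0 in 17.9% (WT) and 13.5% (KO). Thinned to 1 depth, it was found in 82.1% of positive and 18.6% of negative WT cells and in 87.2% and 28.9% of KO cells.

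Tnfrsf9 (4-1BB; chr4:150914562-150946102), a receptor induced on activated T cells, differed by 8.55 in WT and 6.80 in KO. It was above 0 in 25 of 30 and 7 of 49 WT cells, with means of 9.51 ± 4.92 and 0.95 ± 2.77 and medians of 11.58 and 0. In KO cells it was above 0 in 30 of 39 and 10 of 39, with means of 8.86 ± 5.25 and 2.06 ± 4.02 and medians of 11.77 and 0. Tnfrsf18 (GITR; chr4:156026164-156028895), which lies next to Tnfrsf4, was the most widely detected of the set in negative cells. It was above 0 in 26 of 30 positive and 27 of 49 negative WT cells and in all 39 positive and 22 of 39 negative KO cells, with differences of 4.06 and 5.42. In cells matched on genes and on reads the difference of Tnfrsf18 was 2.22 and 1.32 in WT and 4.80 and 5.27 in KO. Of 15 members of the TNF receptor list above the filter (20 listed), 6 were alike higher and none lower, and the list's median difference was 0.84 in WT and 1.40 in KO. The other members called were Tnfrsf1b (TNFR2; 4.73 and 3.15), Cd27 (3.96 and 6.14) and the adaptor Traf1 (3.94 and 2.67). Tnfrsf25 (0.15 and -0.89) and Fas (-0.06 and 0.79) were not among them. In cells matched on genes and on reads Cd27 was at 1.72 and 2.10 in WT and 5.84 and 6.47 in KO.

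IL-2 receptor genes were also higher in Foxp3-positive cells. Il2ra (CD25; chr2:11642807-11693193) was above 0 in 25 of 30 positive and 8 of 49 negative WT cells, at 4.59 ± 3.02 (median 5.17, highest 8.57) against 0.44 ± 1.41 (median 0, highest 6.81). In KO it was above 0 in 35 of 39 positive cells, the 39 giving 5.67 ± 2.85 (median 6.58, highest 9.58), and in 12 of 39 negative cells, those 39 giving 1.14 ± 2.20 (median 0, highest 7.56). Its differences of 4.15 and 4.53 came with smaller ones for the shared chains Il2rb (3.31 and 2.5) and Il2rg (2.48 and 1.49), which both classes held in most cells. Jak3, the kinase bound to the common gamma chain, differed by 2.85 and 3.06, Cish, a STAT5-induced feedback inhibitor, by 3.71 and 2.65, and Il4ra by 1.61 and 3.05. With log2 of the mean FPKM Cish was at 0.79 in WT and 0.36 in KO, no longer called. Of 18 list members above the filter (20 listed), 6 were alike higher and 1, the survival gene Bcl2 (-1.39 and -2.30), was lower, with list medians of 0.96 and 0.80.

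Among coinhibitory receptors, Ctla4 (chr1:60887000-60915832), which competes with CD28 for its ligands, was above 0 in every Foxp3-positive WT cell, where its lowest value was 5.60 and its mean 10.32 ± 1.75. The 49 negative WT cells gave 3.56 ± 4.39, with Ctla4 above 0 in 21 of them. In KO cells it was above 0 in 33 of 39 positive cells (8.72 ± 4.13) and 18 of 39 negative cells (3.67 ± 4.32), so that the differences were 6.77 and 5.05. Ctla4 was not particular to the Foxp3 classes, since 55.2% of WT and 54.1% of KO CD8 cells had it. Tigit differed by 6.01 and 4.40 and Klrg1, a receptor of terminally differentiated T cells, by 5.68 and 3.54. Klrg1 was above 0 in 19 of 30 positive and 2 of 49 negative WT cells and in 19 of 39 and 5 of 39 KO cells. Lag3 (3.29 and 2.84), Havcr2, which encodes TIM-3 (3.61 and 2.11), and the ectoenzyme genes Entpd1 (CD39; 2.94 and 2.48) and Nt5e (CD73; 1.52 and 1.24) were alike higher too. Of 14 members above the filter (18 listed), 9 were alike higher and 1, Cd96 (-1.93 and -1.53), lower, with medians of 2.51 and 1.65. Pdcd1, which encodes PD-1, did not go the same way in both genotypes, at 4.01 in WT and -1.15 in KO. Over all described genes 0.552% were, like it, higher by at least 1 in WT and lower by at least 1 in KO, and 0.104% the reverse.

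**Figure D3:**
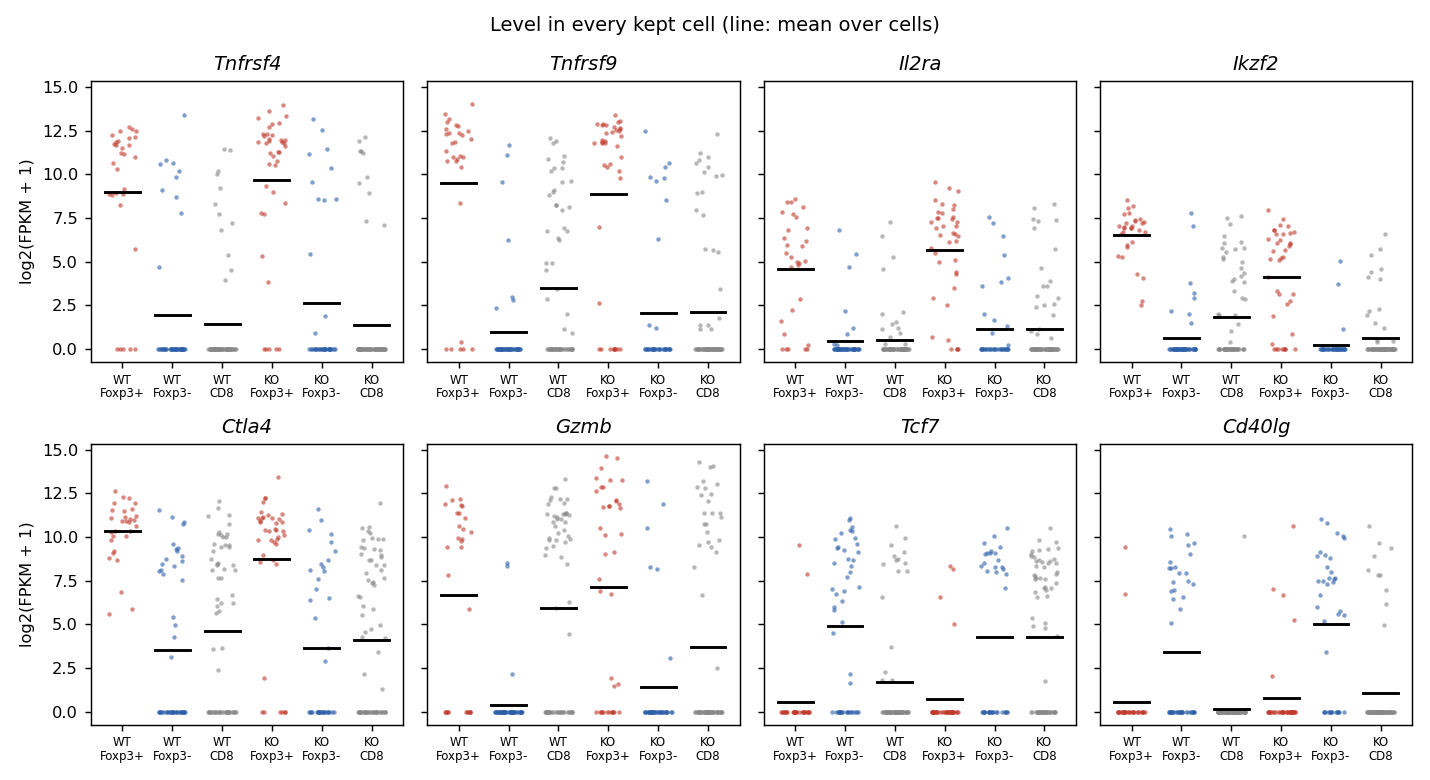
Level of 8 genes, log2(FPKM + 1), in every kept cell by genotype and class, with CD8 cells for comparison. Points are cells, spread sideways at random, and bars are means. In most panels the classes differ in how many cells are at 0, and the cells above 0 overlap. Tcf7 and Cd40lg run the other way from the rest.

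Several effector genes were alike higher, with Gzmb among the 15 leading genes. Gzmb (granzyme B, a serine protease of cytotoxic granules; chr14:56258838-56262260) was above 0 in 19 of 30 positive WT cells (6.67 ± 5.33, median 9.60, highest 12.91) and 3 of 49 negative WT cells (0.39 ± 1.70, highest 8.52). In KO cells it was above 0 in 27 of 39 positive cells (7.17 ± 5.76, median 9.12, highest 14.61) and 6 of 39 negative cells (1.42 ± 3.61, highest 13.23). The differences were 6.28 and 5.75, and 56.7% of WT and 33.8% of KO CD8 cells had the gene. Il10, an anti-inflammatory cytokine, was above 0 in fewer cells: 9 of 30 positive and 1 of 49 negative WT cells and 13 of 39 and 2 of 39 KO cells, with differences of 2.40 and 2.76. Areg, the growth factor amphiregulin of tissue repair (3.90 and 2.5), Fgl2 (5.45 and 3.24), Ebi3, a subunit of IL-27 and IL-35 (2.43 and 1.54), and Lrrc32 (GARP, which holds latent TGF-beta; 2.18 and 3.38) were alike higher. Lrrc32 was above 0 in 0 of 39 negative KO cells, which allows a share of up to 7.69%. Of 25 members of the regulatory T cell surface and effector list above the filter (28 listed), 23 were alike higher and none lower, with medians of 3.32 and 2.76. The 2 others were Nrp1 (0.36 and -0.81) and Il1rl1, the IL-33 receptor (0.69 and 1.47), and Gpr83, Penk and Tgfb1 fell under the filter.

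Further leading genes had other functions, and Capg and Folr4 among them are also members of the list just counted. Capg, which caps actin filaments (chr6:72544391-72562983), was above 0 in 28 of 30 positive and 22 of 49 negative WT cells and in 36 of 39 and 19 of 39 KO cells, with differences of 5.92 and 5.59. Glrx, the redox enzyme glutaredoxin, differed by 6.37 and 5.33. Folr4 (the older name of Izumo1r, which encodes folate receptor 4; chr9:14885814-14903949) was above 0 in 20 of 30 positive and 6 of 49 negative WT cells and in 30 of 39 and 7 of 39 KO cells, with differences of 5.28 and 5.91. Gimap7, a GTPase of lymphocytes, differed by 5.62 and 4.33, Arl5a, a small GTPase, by 4.56 and 4.31, Pglyrp1, a peptidoglycan recognition protein, by 6.05 and 4.28, and Trp53i11 by 4.05 and 4.23. Arl5a was above 0 in 26 of 30 positive and 8 of 49 negative WT cells. It was above 0 in 27 of 39 and 5 of 39 KO cells, with a highest value of 10.11. In CD8 cells these 7 genes were above 0 in between 5.4% (Folr4 in KO) and 62.7% (Gimap7 in WT).

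The windows around the annotated start of the leading genes were read from RefSeq (GRCm38.p6; 250 bases before to 50 after the start, 300 bases) and searched on both strands for 3 short motifs, each by its letters alone: forkhead TGTTTAC, AP-1 TGACTCA and TCF CTTTGAT. Sequences were found for 14 of the 15 leading higher genes and 13 of the 15 leading lower genes. The AP-1 letters were in 3 of the 14, namely Tnfrsf9, Gzmb and Glrx, the TCF letters in 2 (Tnfrsf9 and Ctla4) and the forkhead letters in 0. Of the 13 lower genes 1, Tcf7, held the forkhead letters. The windows with a match to AP-1 or forkhead are shown in the gene's direction, with the match in capitals, because they belong to genes at both ends of the comparison. They are Gzmb (chr14:56262285-56262584, minus strand, match 58 bases before the start), the second start of Tnfrsf9 (chr4:150927749-150928048, plus strand, 15 bases before), Glrx (chr13:75839635-75839934, plus strand, 98 bases before) and the second start of Tcf7 (chr11:52282546-52282845, minus strand, match beginning just after the start).
Gzmb: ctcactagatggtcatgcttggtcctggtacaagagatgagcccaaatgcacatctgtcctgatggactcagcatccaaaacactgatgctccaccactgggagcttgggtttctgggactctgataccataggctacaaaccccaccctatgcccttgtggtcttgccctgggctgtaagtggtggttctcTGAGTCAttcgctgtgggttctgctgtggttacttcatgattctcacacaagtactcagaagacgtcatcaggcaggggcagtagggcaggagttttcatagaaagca
Tnfrsf9: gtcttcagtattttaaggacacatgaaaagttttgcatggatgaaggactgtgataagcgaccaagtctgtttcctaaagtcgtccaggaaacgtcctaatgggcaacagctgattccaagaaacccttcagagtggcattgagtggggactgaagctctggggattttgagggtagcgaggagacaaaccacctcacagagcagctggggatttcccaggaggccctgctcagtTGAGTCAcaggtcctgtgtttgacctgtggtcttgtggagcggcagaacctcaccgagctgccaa
Glrx: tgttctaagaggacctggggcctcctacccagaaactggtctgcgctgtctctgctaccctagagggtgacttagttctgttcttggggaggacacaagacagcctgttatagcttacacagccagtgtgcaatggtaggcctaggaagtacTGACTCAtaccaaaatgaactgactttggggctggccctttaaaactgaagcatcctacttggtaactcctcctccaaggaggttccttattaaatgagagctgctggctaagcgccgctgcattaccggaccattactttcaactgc
Tcf7: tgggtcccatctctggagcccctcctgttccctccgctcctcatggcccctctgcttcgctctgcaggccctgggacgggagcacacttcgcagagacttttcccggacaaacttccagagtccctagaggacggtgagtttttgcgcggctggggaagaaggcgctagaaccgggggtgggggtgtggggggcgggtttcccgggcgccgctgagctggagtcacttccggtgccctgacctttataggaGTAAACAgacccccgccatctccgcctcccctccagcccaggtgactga
Across all alike genes the letters were no more than rare. Forkhead was in 2.23% of the 537 alike higher genes with a window and 2.70% of the 37 alike lower genes, against 3.07% of the 5044 described genes with one and 4.05% of all 27025 genes in the table. AP-1 was in 5.21% and 0%, against 4.26% and 5.95%, and TCF in 3.35% and 2.70%, against 3.09% and 4.29%. A match is a run of letters and not a site, and these windows hold no distal elements.

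Transcription factors of the lineage were led by Ikzf2 (chr1:69531214-69687245). It was above 0 in all 30 positive WT cells, where the lowest value was 2.52 and the mean 6.5 ± 1.47, and in 8 of 49 negative WT cells (0.62 ± 1.68). In KO cells it was above 0 in 31 of 39 positive cells (4.12 ± 2.76) and 3 of 39 negative cells (0.26 ± 1.00), and the differences were 5.88 and 3.86. Helios was also detected in 41.8% of WT and 20.3% of KO CD8 cells. Ikzf4, which encodes Eos, a corepressor partner of Foxp3, was above 0 in 10 of 30 and 2 of 49 WT cells and in 18 of 39 and 0 of 39 KO cells, at differences of 1.69 and 2.85. In cells matched on genes the WT difference of Ikzf4 was 0.74, under the size called. Maf (3.61 and 1.61) and Prdm1 (1.81 and 1.10), which drive Il10 in T cells, Nfil3 (1.42 and 1.36) and Batf (1.8 and 1.85) completed the 6 alike higher genes of 20 described (22 listed). Foxp1 was the 1 lower gene (-1.64 and -1.30), and the list medians were 1.15 and 0.74. Gata3 (1.98 and -0.05), Rora (1.6 and -0.48) and Rel (1.86 and -0.41) were higher in WT alone by these values, and the difference between genotypes was not tested. Batf was 1 of the named genes whose WT sign depended on the cells used, at -0.31 without cells carrying other cell type markers.

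Chemokine receptors split by gene. Ccr2 (chr9:124101950-124113557), a receptor for monocyte-attracting chemokines, was above 0 in 28 of 30 positive and 23 of 49 negative WT cells and in 32 of 39 and 17 of 39 KO cells, with differences of 4.63 and 4.68. It belongs to a family of similar receptors, among which the quantification may share reads. Cxcr6 (chr9:123806475-123811760), a receptor of tissue-resident T cells on the same chromosome, was lower: 6 of 30 and 18 of 49 WT cells and 7 of 39 and 24 of 39 KO cells had it, with differences of -1.96 and -4.02. Ccr8, a receptor known on tumour regulatory T cells, differed by 3.91 and 1.61. The lymph node homing and egress receptors Ccr7 (-2.0 and -1.04) and S1pr1 (-2.62 and -1.62) and the oxysterol receptor Gpr183 (-1.89 and -2.03) were lower. In all, 3 of 12 members above the filter (18 listed) were alike higher and 4 lower, with medians of -0.06 and -0.08. Cxcr3 had differences of -1.57 and 0.77 and Cxcr4 of -0.06 and -0.18.

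Adhesion and cytoskeletal genes were mostly higher, with 16 of 29 described members (31 listed) alike higher and 4 lower, and medians of 1.76 and 1.56. Itgae (CD103, which binds E-cadherin) was above 0 in 36.7% of positive and 4.08% of negative WT cells and in 43.6% and 2.56% of KO cells, with differences of 2.21 and 2.89. Itgav (2.43 and 2.08) and Itgb8 (1.23 and 1.16), whose products together activate TGF-beta, were alike higher, as were the intermediate filament gene Vim (4.17 and 3.52) and the calcium-binding S100a4 (4.53 and 2.90) and S100a10 (3.79 and 2.94). Itgb1 (chr8:128685654-128733200), the beta chain of the VLA integrins, was lower: 8 of 30 and 27 of 49 WT cells and 20 of 39 and 30 of 39 KO cells had it, with differences of -2.67 and -2.86. Its partner Itga4 (-1.08 and -1.49), the costimulatory receptor Cd226 (-1.99 and -1.28) and Ly6c2 (-1.62 and -2.06), which has a close paralog, were lower as well.

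Tcf7 (chr11:52252371-52283014), which encodes TCF-1, a factor of naive and memory T cells, was lowest relative to Foxp3-negative cells in WT. It was above 0 in 2 of 30 positive cells (0.58 ± 2.22) and 30 of 49 negative cells (4.89 ± 4.36, median 6.02, highest 11.08). In KO cells it was above 0 in 4 of 39 positive (0.72 ± 2.20) and 19 of 39 negative cells (4.27 ± 4.47, median 0, highest 10.50), and the differences were -4.31 and -3.55. Thinning left these shares at 7.14% and 67.4% in WT and 10.3% and 50% in KO. With Ccr7, S1pr1, Bcl2, Klf3 (-1.29 and -1.10) and Foxp1 it made 6 alike lower genes of 13 described on the naive and memory list (16 listed), where the background was 0.761%. The list's medians were -1.07 and -1.10. Cd27, the 1 alike higher member, stands on the TNF receptor list too.

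Cd40lg (chrX:57212143-57224042), the helper signal to B cells and dendritic cells, was above 0 in 2 of 30 positive cells (0.54 ± 2.08) and 21 of 49 negative cells (3.43 ± 4.12) in WT. In KO it was above 0 in 5 of 39 (0.81 ± 2.37) and 25 of 39 cells (5.00 ± 4.08), and the differences were -2.89 and -4.19. Only 11 of 31 conventional helper genes passed the filter, and of these 1 was alike lower and 1, Gzmb, alike higher, with medians of 0.42 and -0.58. The cytokines Il2, Il4, Il13, Il17a, Il21 and Csf2 were all under the filter. Il2 was above 0 in 0 of 30 and 0 of 39 positive cells, which allows shares of up to 10% and 7.69%, and in 3 of 49 and 6 of 39 negative cells. Fasl, a death ligand, was above 0 in 4 of 30 and 11 of 49 WT cells and 3 of 39 and 18 of 39 KO cells, with differences of -0.98 and -3.02.

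Other leading lower genes came from several functions. Arid5a, an RNA-binding protein that stabilises inflammatory transcripts, was above 0 in 6 of 30 and 28 of 49 WT cells and in 13 of 39 and 32 of 39 KO cells, with differences of -2.41 and -3.96. Il18r1, a chain of the IL-18 receptor (-1.80 and -2.92), Tgfbr2, a chain of the TGF-beta receptor (-1.9 and -2.44), the RNA-decay factor Zfp36l2 (-1.9 and -2.35), the antiproliferative Btg2 (-1.72 and -2.92) and Themis, a T cell receptor signalling adaptor (-1.73 and -2.43), were lower. Slfn1 (-2.07 and -2.64) and Ms4a4b (-3.57 and -2.14) belong to families of close paralogs, so their values are uncertain. Ehd3, an endocytic recycling gene, differed by -1.94 and -2.43. These lower genes were not absent from Foxp3-positive cells: Btg2 was above 0 in 16 of 30 WT and 28 of 39 KO positive cells.

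Genes of the T cell receptor pathway showed little common direction, with 3 of 26 alike higher and 2 lower and medians of 0.74 and 0.38. The higher ones were the phosphatase gene Ubash3b (2.04 and 2.11), Cd6 (1.62 and 1.13) and Cd5, and the lower ones Themis and the diacylglycerol kinase gene Dgka (-1.10 and -1.88). Cd5, at 1.15 and 2.06, was lower in positive WT cells in several other settings, among them cells matched on genes, where its WT difference was -1.26.

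Among NF-kB genes, 14 of 20 were higher by at least 1 in WT and 7 in KO, against 27.4% and 18.3% of all described genes. A list of housekeeping genes leaned to WT too, with 9 of 20 higher by as much in WT and 1 in KO. Of 20 members, 5 were alike higher and none lower, with medians of 1.59 in WT and 0.51 in KO. The 5 were Nfkb2, a subunit of the noncanonical pathway (1.72 and 2.90), the inhibitor Nfkbie (1.11 and 2.20), the coactivator Bcl3 (1.5 and 2.15), Tank (1.77 and 2.97) and the adhesion gene Icam1 (2.39 and 1.95). In WT the difference of Nfkb2 was 0.44 in cells matched on genes and 0.40 with log2 of the mean FPKM, and no longer called. Nfkbia, the main feedback inhibitor, stood at 4.68 and 0.79 and Tnfaip3, which encodes the feedback enzyme A20, at 1.53 and -2.67.

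On the list of the IL-27 receptor and linked genes, 9 of 18 described members (22 listed) were alike higher and none lower, with medians of 1.76 and 1.11. IL-27 signals through Il27ra and the shared chain Il6st, by way of STAT proteins such as STAT3. Il6st differed by 1.70 and 0.88 and Stat3 by 2.76 and 1.49. The receptors for IL-10, Il10ra (2.28 and 1.56) and Il10rb (2.01 and 1.75), were alike higher with Il10, Maf, Prdm1, Lag3 and Havcr2.

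Within the Foxp3-positive cells the leading genes were unevenly combined, in pairs chosen after their values were seen. Gzmb was above 0 in 14 of 19 WT cells with Klrg1, 73.7%, against 45.5% of those without it, and in 17 of 19 KO cells with Klrg1, 89.5%, against 50% of the rest. Tnfrsf9 was above 0 in all 18 WT cells with Ccr8, against 58.3% of those without, and in 15 of 17 KO cells with it, against 68.2%. Cells with more reads hold more genes above 0, and the part of depth in this pairing was not tested.

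**Figure D4:**
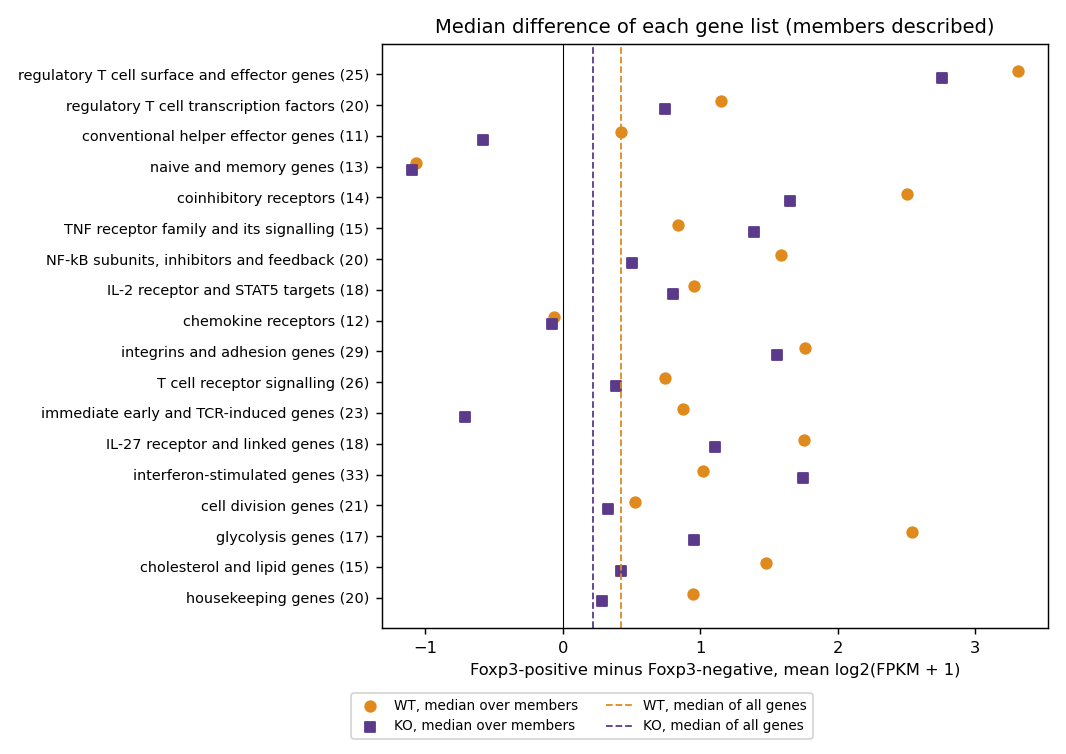
Median difference over the described members of 18 gene lists (number in brackets) in WT (orange circles) and KO (purple squares), in units of mean log2(FPKM + 1), Foxp3-positive minus Foxp3-negative. Dashed lines are the medians over all described genes, 0.43 and 0.22. The surface and effector list lies farthest right and the naive and memory list left of 0 in both.

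The 15 leading higher genes kept their sign and a size of at least 1 in both genotypes in all 19 other settings that could give them a value, among them matched and thinned cells, Cd4-positive cells only and cells without Cd8a or Cd8b1. Of the 15 leading lower genes 9 did so, Tcf7, Cd40lg, Itgb1, Arid5a, Slfn1, Cxcr6, Ehd3, Zfp36l2 and Il18r1. Folr4 had no transcript length under that name and was not thinned. The genes were picked as the largest of 6706 in the same cells, so this is no independent support. Of all 62 named genes called alike, 50 were called in cells matched on genes, where Batf, Ikzf4, Nfkb2, Cd5, Zfp36l1, Psmb9, H2afz, Pkm, Pfkp, Fabp5 and Hprt were among those lost. With log2 of the mean FPKM 48 were called, and Cish, S100a4, S1pr1, Ms4a4b, Btg2 and Tap1 were among those lost. Cells that carry several cell division genes numbered 20 of 30 positive and 23 of 49 negative in WT. In KO they numbered 18 of 39 and 22 of 39. Without such cells, which left 10 positive WT cells with a median of 2169.5 genes above 0, 46 were called. Lag3 (0.65 in WT), Il10 (-0.061), Havcr2 (0.96), Icam1 (0.54), Ubash3b (0.46) and Gpr183 (-0.69) were among those lost there.

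**Figure D5:**
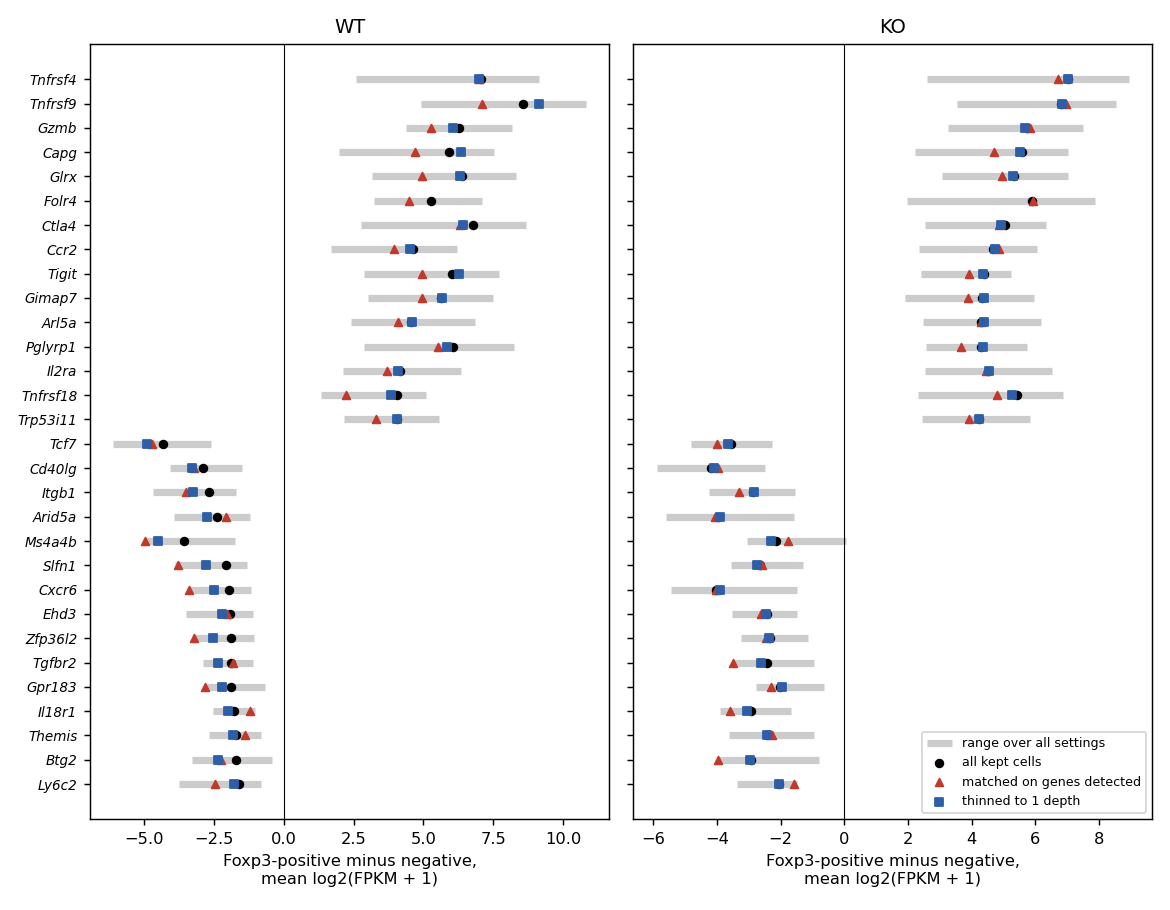
WT (left) and KO (right) differences of the 15 leading higher and 15 leading lower genes. Black points are all kept cells, red triangles cells matched on genes detected, blue squares cells thinned to 100000 estimated reads, and grey bars the range over all settings. The higher genes stay to the right of 0 in every setting, and among the lower genes Ms4a4b in KO reaches 0.058.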

How the data were processed

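The members and gene lists were chosen with earlier results of these data known. Single T cells were lysed, copied to cDNA by Smart-seq2 and made into Nextera XT libraries, per the labels' protocols, with no molecular identifiers described. The authors' deposited values are FPKM with TMM scaling between libraries, per the labels, from Bowtie and RSEM with mm10 per the submitters' processing notes. Versions and gene annotation are not given in the sources used here, and RSEM shares reads among similar transcripts. Groups came from titles. All 23420 genes lie in 1 table, in which 0 columns were unmapped and 0 libraries identical. No doublet caller was run.

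Differences are of mean log2(FPKM + 1), a scale that understates differences of low genes, computed with Python 3.11.15, numpy 2.4.6, pandas 2.3.3 and scipy 1.17.1 (exact binomial intervals). No test was made, since each genotype is 1 sample. SDs are over cells. Named genes are the 15 described genes with the largest smaller-of-both difference in each direction (T cell receptor, immunoglobulin, mitochondrial, predicted and RIKEN genes left out), the markers, and up to 3 members of each of 18 lists; any other gene was picked from its list after its values were seen. Gene positions and transcript lengths came from GENCODE M21, with a length for 21777 genes, promoters from RefSeq. Relative depth was estimated from FPKM steps (a median of 66.3% of low values in CD4 cells lay within 0.1 of a whole read) and is approximate. Scripts were tested on simulated data. Values of some genes are not reported here. Alternatives covered the pseudocount, filters, matching, thinning and cell subsets.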

Additional observations from a re-analysis of the deposited data

Results flagged for a closer look

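Immediate early and T cell receptor-induced genes, which respond within minutes to receptor signals or to cell handling, differed in direction between the genotypes. The median difference of the 23 described members (27 listed) was 0.875 in WT and -0.711 in cells labelled KO, with 18 of 23 above 0 in WT and 5 of 23 in KO, against 72.8% and 64.6% of all described genes, so that the WT count lies near the background. Only Zfp36l1 was alike higher, at 0.89 in WT cells matched on genes, and only Btg2 alike lower. The difference between genotypes was not tested, because each is 1 sample. Genotype cannot be told apart from the marks in the titles, dog and p3 in WT and bird and p2 in KO.

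Egr1, a zinc finger factor of this response, was above 0 in 14 of 30 positive and 11 of 49 negative WT cells and in 11 of 39 and 25 of 39 KO cells, which gave 1.24 and -3.85. Fos, an AP-1 subunit, gave 1.69 and -1.58, Klf6 gave 1.10 and -1.38, and Bhlhe40, a factor of cytokine-producing T cells, gave 2.14 and -1.53. Tnfaip3, the NF-kB feedback gene, gave 1.53 and -2.67, and the kinase gene Jak1 gave 1.03 and -2.04.

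Pdcd1 was above 0 in 18 of 30 positive and 10 of 49 negative WT cells and in 8 of 39 and 13 of 39 KO cells, which gave 4.01 and -1.15. Among CD8 cells 61.2% of WT and 28.4% of KO cells had it. The opposite signs of Bhlhe40, Egr1 and Pdcd1 were found in 19 of 19 other settings, and those of Fos, Jak1, Klf6, Tnfaip3 and the list median in 18 of 19. The lowest WT values there were 0.893 for Bhlhe40, 0.763 for Pdcd1, 0.422 for Fos and 0.201 for Egr1. They were 0.135 for the list median, 0.038 for Klf6, -0.153 for Tnfaip3 and -1.019 for Jak1. The genes were picked for their opposite signs and the settings reuse the same cells, so this is no independent support. Over all 6706 genes, 37 (0.552%) were higher by at least 1 in WT and lower by at least 1 in KO, and 7 (0.104%) the reverse. The genes here are those of the lists that met this condition.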

How the results depend on the processing

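The alike genes, 10.7% of described genes higher and 0.761% lower, depended on the scale and the cells. These shares were 19% and 1.54% with a pseudocount of 0.1, 3.95% and 0.298% with 10, 24.6% and 0.253% with every library kept, 5.07% and 2.09% in cells matched on genes, 5.38% and 2.01% in cells matched on estimated reads, and 6.81% and 1.48% after centring on the median. Lower genes alone moved by over 1.5 times in number without cells with Cd8a or Cd8b1 (1.3%), without cells with division genes (1.94%) and with log2 of the mean FPKM (3.19%). Of the 717 higher and 51 lower genes, 44.4% and 92.2% remained in cells matched on genes. With log2 of the mean FPKM 35% and 68.6% remained, with a pseudocount of 10 37% and 39.2%, and with every library kept 97.2% and 29.4%. The sign of a difference of at least 1 reversed for 7 named genes. Cd5 in WT was at -0.45 with 2000 genes per cell and at -1.26 and -1.50 in cells matched on genes and reads. It was at -0.37 without the CD4 cells with Cd8a or Cd8b1, -0.16 without other cell type markers and -1.30 without division genes. Batf in WT was at -0.31, -0.91 and -0.87 without other type markers, without division genes and in cells matched on reads. Without division genes Il10 in WT was at -0.061 and Mcm6 at -0.76. Hprt in WT was at -0.02 in cells matched on genes and Pfkp in WT at -0.44 without the CD4 cells with Cd8a or Cd8b1. Ms4a4b in KO was at 0.058 with every library. The interferon list's WT median was at -0.22 in cells matched on genes. The causes were not tested. Of the list medians 672 moved by less than the spread over the list, 11 by more and 1 reversed, and of the single-gene values 2554 moved by less than the spread over cells, 14 by more and 14 reversed. Centring, matching on reads and the narrower marker flag were chosen after seeing the data. No paired analysis was possible because the labels give no replicate numbers. Depth limits shares: 8 WT and 1 KO cells had too few reads for thinning.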

Other observations

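Of interferon-stimulated genes, 14 of 33 described members (36 listed) were alike higher in Foxp3-positive cells, none lower, with median differences of 1.02 in WT and 1.75 in KO. The WT direction rested on the cells used: in cells matched on genes the medians were -0.22 and 1.32, and in cells matched on estimated reads 0.079 and 1.14. The largest were genes of antigen processing and interferon-gamma-induced GTPases. Tap1, a peptide transporter, differed by 3.85 and 3.19, its neighbour Psmb9, an immunoproteasome subunit, by 2.95 and 3.05, Igtp by 2.87 and 3.31 and Gbp7 by 3.06 and 2.93. Ifi27l2a differed by 3.43 and 3.26, while the antiviral genes Ifit3 (-0.78 and -0.64) and Irf7 (-0.10 and -0.39) were not higher. In WT cells matched on genes Tap1 was at 1.35 and Psmb9 at 0.93, and in WT cells matched on reads Tap1 was at 0.70. Tap1 and Psmb9 overlap in the annotation, so reads there cannot be assigned without strand.

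Glycolysis genes were higher more widely in WT, where 16 of 17 described members (18 listed) were above 1, than in KO, where 8 were, with medians of 2.54 and 0.96. More genes were called in WT in general: 27.4% of all described genes were higher by at least 1 in WT and 18.3% in KO. Of 20 housekeeping genes 9 were higher by as much in WT and 1 in KO. Of the 8 alike higher genes, the hypoxia factor Hif1a differed by 3.89 and 2.35, Tpi1 by 4.98 and 1.82 and Pkm by 2.96 and 2.05. In WT cells matched on genes Hif1a was at 2.62 and Pkm at 0.32, no longer called, and the list's medians were 1.44 and 0.865. Pgk1, a phosphoglycerate kinase, was at 5.26 in WT and 0.20 in KO. Of 15 cholesterol and lipid genes (24 listed) 3 were alike higher, among them the sterol synthesis gene Cyp51 (1.97 and 1.31) and the fatty acid carrier Fabp5 (1.48 and 2.07), with medians of 1.48 and 0.42. Fabp5 was at 0.56 in WT cells matched on genes. Housekeeping genes ran the same way at medians of 0.95 and 0.29, with Gapdh at 2.53 and 0.96 and Actg1 at 2.28 and 0.90. The glycolysis and housekeeping lists have the same WT maximum of 5.26, the value of Pgk1, so their members overlap. Of the 20 housekeeping genes 1, Hprt (1.24 and 1.17), was alike higher. Hprt was at -0.02 in WT cells matched on genes. Of 21 division genes (40 listed) 1, H2afz (2.60 and 1.48), was alike higher, though at 0.97 in WT cells matched on genes, with medians of 0.52 and 0.33, and Mki67 was above 0 in 3 of 30 and 7 of 49 WT cells and 5 of 39 and 3 of 39 KO cells. With the all-gene medians of 0.43 in WT and 0.22 in KO taken off, the glycolysis, cholesterol and housekeeping medians remained higher in WT than in KO. The difference between genotypes was not tested.

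Some genes stood out in 1 genotype and were picked after their values were seen. Ccr3, an eosinophil chemokine receptor, was above 0 in 18 of 39 and 2 of 39 KO cells, against 5 of 30 and 0 of 49 WT cells, where a count of 0 allows a share of up to 6.12% (3 counts of the total). The phosphatase gene Dusp1 was at 4.70 in WT and -0.74 in KO.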
